A study of Mus musculus with 20 samples.

Results

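The YAP/TAZ-TEAD genes described here were the 10 rows of the deposited gene table named Yap1, Wwtr1, Tead1, Ctgf, Cyr61, Ankrd1, Amotl1, Amotl2, Ajuba and Lats2. They were chosen by name from 54986 genes, with earlier results of these data known. All 10 were among the 17106 genes tested, those reaching 1 CPM (read counts scaled to library size) in 2 or more libraries. The 10 genes were followed through 10 conditions of NMuMG cells, a line of normal murine mammary gland epithelium that undergoes epithelial–mesenchymal transition (EMT) when exposed to TGFβ.

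In this pathway, YAP (Yap1) and TAZ (Wwtr1) are coactivators without a DNA-binding domain of their own, which enter the nucleus and bind the TEAD transcription factors. The kinases of the Hippo cascade, LATS2 among them, phosphorylate YAP and TAZ and keep them in the cytoplasm, and angiomotin family proteins hold them at junctions and on actin. The activity of YAP and TAZ is therefore set largely by phosphorylation and localisation, which RNA sequencing does not read, and their transcriptional output is commonly followed through targets such as Ctgf, Cyr61 and Ankrd1.

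Bulk RNA was sequenced from 20 libraries, 2 for each condition. Wild-type NMuMG cells were compared with NMuMG cells treated with TGFβ for 4 d and with E1KD, NMuMG cells carrying an shRNA against hnRNP E1 (gene symbol Pcbp1), an RNA-binding protein whose loss is used in this model to induce EMT. M1P and L1P are lines of E1KD cells recovered from a primary tumor and from lung metastasis after injection into mice, selected by a puromycin resistance gene and then grown in culture. The remaining conditions were NMuMG with an empty vector, clones 12 and 16 of NMuMG overexpressing the long noncoding RNA Platr18, E1KD cells given a control, scrambled hairpin (E1KD SCR) or a hairpin against Platr18 (E1KD Platr18 KD). Thus M1P, L1P, E1KD SCR and E1KD Platr18 KD all carry the hnRNP E1 shRNA, each overexpressing line is 1 clone, and the E1KD SCR cells differ from the empty vector cells in their vector as well as in the hnRNP E1 shRNA. The sources do not state that the 2 libraries of a condition came from separate cultures, so the spread between them may be technical. The p-values rest on a spread per gene pooled over all 10 conditions, not on that of the compared conditions alone.

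Promoters of 3 genes with a TEAD core and of Amotl1, the gene with the widest change, are shown because YAP and TAZ reach DNA through TEAD, whose M-CAT element has the core CATTCC on one strand and GGAATG on the other. RefSeq promoters (GRCm38.p6, 250 bases before to 50 bases after the start site) were found for 8 of the 10 genes, with Cyr61 listed as Ccn1 and none for Ctgf and Tead1. The core stood in at least 1 listed promoter of 7 of these 8 genes. Counted by promoter rather than by gene, 14.7% of all 32851 promoters of the same length held it. Cyr61 (chr3:145649936-145650235, minus strand) held it 103 bases before the start site, and Amotl2 (chr9:102717554-102717853, plus strand) 65 bases before it. Ankrd1 (chr19:36119795-36120094, minus strand) held it 2 times, 210 and 123 bases before the start, a number of copies that 1.36% of promoters reach. Ajuba also held 2 copies, and Yap1, each of 2 listed promoters of Wwtr1 and 1 of 2 of Lats2 held 1 copy. The promoter of Amotl1 (chr9:14614951-14615250, minus strand) did not contain these letters. The RefSeq start sites of Amotl1, Amotl2 and Lats2 lie inside the gene spans of the deposited table, so the outer starts of those spans were not searched. Sequences run 5′ to 3′ on the gene's strand, and capitals mark CATTCC or GGAATG.
Cyr61: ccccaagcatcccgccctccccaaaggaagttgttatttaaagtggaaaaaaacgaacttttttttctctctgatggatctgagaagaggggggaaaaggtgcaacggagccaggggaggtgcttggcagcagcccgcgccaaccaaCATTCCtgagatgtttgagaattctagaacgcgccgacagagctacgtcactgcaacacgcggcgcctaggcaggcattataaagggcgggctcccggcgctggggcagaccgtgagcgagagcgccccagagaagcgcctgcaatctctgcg
Ankrd1: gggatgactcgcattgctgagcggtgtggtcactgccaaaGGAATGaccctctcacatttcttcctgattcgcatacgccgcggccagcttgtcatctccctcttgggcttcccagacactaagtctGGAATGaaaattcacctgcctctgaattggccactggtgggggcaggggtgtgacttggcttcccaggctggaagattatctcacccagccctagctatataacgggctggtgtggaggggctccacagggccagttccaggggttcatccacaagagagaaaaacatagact
Amotl2: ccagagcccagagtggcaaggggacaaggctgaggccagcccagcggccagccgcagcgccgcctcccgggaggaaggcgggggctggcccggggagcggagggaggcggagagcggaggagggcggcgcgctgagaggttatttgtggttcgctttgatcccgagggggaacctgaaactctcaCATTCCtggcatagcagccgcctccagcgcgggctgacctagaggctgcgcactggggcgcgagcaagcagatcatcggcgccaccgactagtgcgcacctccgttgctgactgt
Amotl1: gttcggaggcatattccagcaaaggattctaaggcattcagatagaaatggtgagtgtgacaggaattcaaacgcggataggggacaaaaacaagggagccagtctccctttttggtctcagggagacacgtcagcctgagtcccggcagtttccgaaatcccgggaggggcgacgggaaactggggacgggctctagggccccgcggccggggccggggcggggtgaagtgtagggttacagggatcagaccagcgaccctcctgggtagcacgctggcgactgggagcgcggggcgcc

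Libraries were of 2 kinds, separated by the mitochondrial ribosomal RNA mt-Rnr2, which was at 333 to 492 CPM in the untreated and TGFβ-treated parental cells, in E1KD and in both recovered lines and at 113874 to 165149 CPM in the other 5 conditions. Levels were compared within a kind only, since kind and condition cannot be told apart across them. Depth, inferred from the value of 1 read, ran from 50800000 to 147300000 reads. E1KD replicate 1 stood apart from the rest, its values summing to 728651 CPM against 567414 in replicate 2. All 10 genes were higher in replicate 1, by a median of 0.28 log2 against 0.29 over all tested genes. Over all tested genes the SD of the log2 difference between replicates was 0.383 in E1KD and 0.0780 to 0.139 in the other conditions. The pooled spread behind the p-values therefore does not measure this wider spread of E1KD. Many differences that rest on E1KD are therefore also given without E1KD replicate 1. Others are not, among them those of Tead3, Vgll3, Tgfb2, Igfbp3, Nt5e, Pmepa1, Id1 and the gene that overlaps Ctgf. Pcbp1 fell from 287 and 312 CPM in NMuMG to 16.6 and 14.2 in E1KD and from 32.3 and 32.3 CPM in empty vector cells to 3.28 and 3.46 in E1KD SCR, as the labels state. Krt8 and Krt18 were high in every library, whereas Epcam, Cldn3, Cldn7 and Esrp1, also markers of epithelium, stayed under 1 CPM throughout. With TGFβ Krt19 fell from 475 and 495 CPM to 16.7 and 19.6, Cldn4 rose from 0.124 and 0.113 CPM to 18.5 and 20.2, and 5 of 7 tested mesenchymal markers rose and 0 fell, as 6 of 7 did in E1KD (5 without E1KD replicate 1). Over all tested genes 5.85% were called higher and 7.66% lower with TGFβ, and 6.44% and 2.99% in E1KD. The part of these marker shifts in the results was not tested. No endothelial, lung epithelial or adipocyte marker reached 1 CPM in any library. Of 8 leukocyte markers 2 to 3 did in each library (summed 40.5 to 108 CPM), mostly Cd14 and lowest in TGFβ-treated cells, and their part in the results was not tested.

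Both coactivator RNAs were present in all libraries and, among low mt-Rnr2 libraries, were highest in TGFβ-treated cells. In such bulk samples fewer cells of a type and less RNA per cell cannot be told apart. Yap1 was at 111 and 114 CPM in NMuMG and at 154 and 165 with TGFβ. It was at 118 and 101 CPM in E1KD, 94.2 and 94.3 in M1P and 108 and 106 in L1P. Wwtr1 was at 64.1 and 67.9 CPM in NMuMG and at 119 and 129 with TGFβ, against 69.6 and 56.2 in E1KD, 69.2 and 66.6 in M1P and 77.4 and 78.3 in L1P. For both genes the TGFβ libraries lay above all other libraries of their kind, while NMuMG and E1KD overlapped. E1KD differed from NMuMG by -0.04 log2 for Yap1 and -0.08 for Wwtr1, and by -0.16 and -0.23 without E1KD replicate 1. The TGFβ difference was 0.50 ± 0.07 log2 (SE) for Yap1 (limma, adjusted p = 4.77e-05) and 0.90 ± 0.08 for Wwtr1 (adjusted p = 3.97e-07). Neither passed the calling rule used throughout, a limma p under 0.001 before adjustment together with a log2 fold change of 1 or more in size, on the log2(CPM + 1) scale. Wwtr1 did pass it after rescaling by median-of-ratios factors, at 1.06. Per kilobase of exon, levels in NMuMG were similar, 12.2 ± 0.18 CPM per kb for Yap1 and 13.8 ± 0.55 for Wwtr1 (SD, n = 2), and with TGFβ they were 17.2 ± 0.79 and 26.0 ± 1.46.

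Tead1, the TEAD factor with the highest level per length in NMuMG, was at 87.1 and 89.8 CPM there, 152 and 158 with TGFβ and 107 and 95.1 in E1KD. In the lines recovered from mice it was higher, at 155 and 159.7 CPM in M1P and 180.1 and 178 in L1P. NMuMG and E1KD were thus the low conditions of this kind of library, with no overlap with the other 3. The difference was 0.80 ± 0.09 log2 for TGFβ against NMuMG (limma, adjusted p = 4.76e-06) and 0.64 ± 0.09 for M1P against E1KD (adjusted p = 1.18e-04, and 0.72 without E1KD replicate 1), neither of them called. In the high mt-Rnr2 libraries Tead1 ranged from 16.4 CPM in E1KD Platr18 KD to 26.6 in clone 12.

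The TEAD paralogs behaved differently from Tead1. Tead2 was listed at 0 in both NMuMG, both TGFβ-treated and both clone 12 libraries, and at most at 0.0412 CPM in clone 16 and empty vector libraries. In E1KD it was at 50.1 and 36.8 CPM, in M1P at 26.6 and 28.3, in L1P at 32.1 and 31.2, in E1KD SCR at 35.9 and 38.9 and in E1KD Platr18 KD at 24.6 and 23.98. Every library carrying the hnRNP E1 shRNA therefore had Tead2 and no other library did beyond a few reads, in both kinds of library. Tead2 was called higher in E1KD than in NMuMG (limma, adjusted p = 1.81e-14) and in E1KD SCR than in empty vector cells (adjusted p = 5.22e-14), and no fold is given because the controls were at or near 0. The calls stood without E1KD replicate 1. All these libraries descend from E1KD cells, so hnRNP E1 silencing and the line it was made in cannot be told apart. Tead3 rose with TGFβ, from 12.2 and 12.5 CPM to 30.0 and 32.2, and was lower in M1P (3.47 and 3.95 CPM) than in E1KD (15.5 and 10.9). Tead4 fell with TGFβ by 1.05 log2 (adjusted p = 6.90e-07), a call lost with median-of-ratios rescaling. Vgll3, which encodes a TEAD cofactor of the vestigial-like family, rose from 22.6 and 23.7 CPM in NMuMG to 185 and 204 with TGFβ and to 59.6 and 50.7 in E1KD. Per kilobase of exon Tead2 in E1KD (9.08 CPM per kb) was close to Tead1 (7.45), and in NMuMG Tead1 (6.52) stood above Tead4 (3.88) and Tead3 (1.84).

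**Figure D1:**
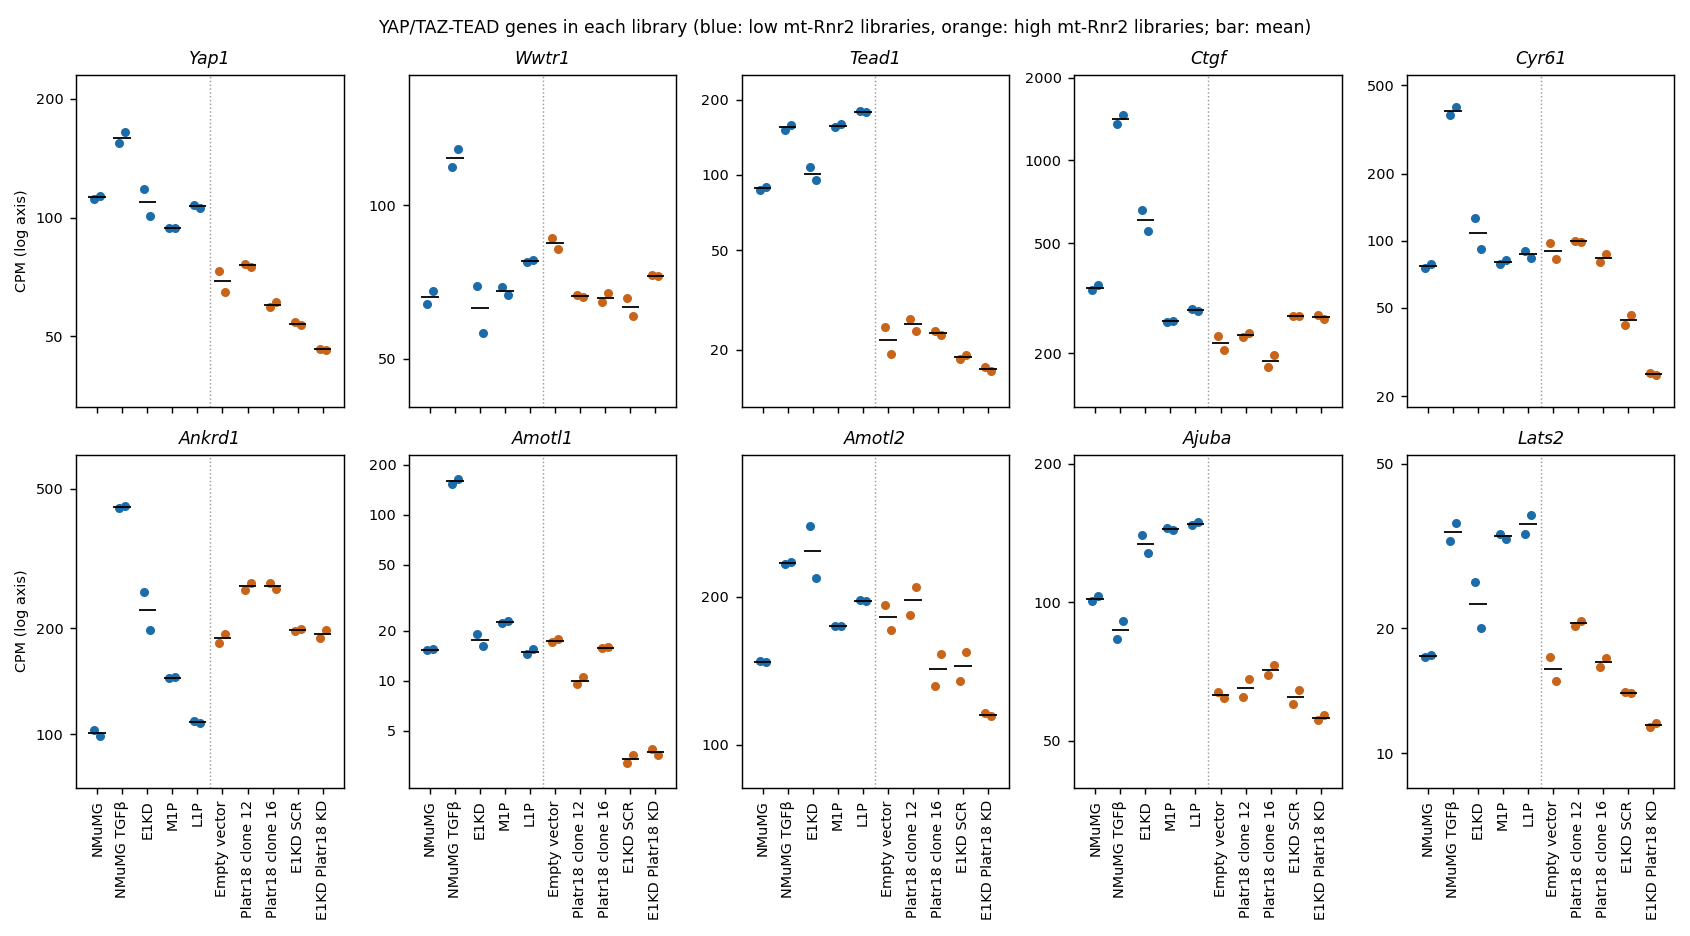
CPM on a log axis of each of the 10 genes in all 20 libraries, with 2 points and a bar at their mean per condition. Blue points are low mt-Rnr2 and orange points high mt-Rnr2 libraries. In the TGFβ-treated libraries Ctgf, Cyr61, Ankrd1 and Amotl1 stood above every other low mt-Rnr2 library. Among high mt-Rnr2 libraries Amotl1 was lowest in E1KD SCR and E1KD Platr18 KD.

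The 3 canonical targets rose together with TGFβ. Ctgf (connective tissue growth factor, a secreted matricellular protein; chr10:24595442-24598684, plus strand, GRCm38) went from 339 and 352 CPM in NMuMG to 1355 and 1465, a 4.08-fold difference of means. Cyr61 (also a secreted matricellular protein; chr3:145646976-145649982, minus strand) went from 75.8 and 78.9 CPM to 369 and 399.8, or 4.97-fold. Ankrd1 (a nuclear and sarcomeric ankyrin-repeat protein; chr19:36111965-36119845, minus strand) went from 103 and 98.7 CPM to 439.9 and 446, or 4.40-fold. The TGFβ libraries did not overlap with any other low mt-Rnr2 library for any of these genes. Log2 fold changes were 2.03 ± 0.08 for Ctgf, 2.30 ± 0.12 for Cyr61 and 2.13 ± 0.09 for Ankrd1 (limma, adjusted p = 4.45e-11, 5.73e-10 and 4.53e-11).

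With hnRNP E1 silencing the same targets were also higher than in NMuMG, by less. Ankrd1 reached 254 and 198 CPM in E1KD, so that its log2 value was higher by 1.15 ± 0.09 (limma, adjusted p = 5.95e-08), and was the only one of the 10 genes called. Without E1KD replicate 1 the difference was 0.97, and it also stood under 1 after either rescaling (0.97 for equal sums, 0.94 for median-of-ratios factors). The call was lost as well when only the compared conditions were fitted (limma, adjusted p = 0.0352). Ctgf was at 659.6 and 554 CPM in E1KD (0.81 ± 0.08, adjusted p = 1.51e-06, and 0.68 without replicate 1), and Cyr61 at 126 and 91.7 (0.47 ± 0.12, adjusted p = 3.87e-03, and 0.24 without replicate 1). E1KD lay above NMuMG in both libraries for all 3 genes.

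In the lines recovered from mice the target levels were lower again. Ctgf fell from E1KD to 259.9 and 262 CPM in M1P, a log2 fold change of -1.21 ± 0.08 (limma, adjusted p = 5.26e-08) and of -1.08 without E1KD replicate 1. This was the only called difference among the 10 genes between M1P and E1KD. The call was lost when only these conditions were fitted (limma, adjusted p = 0.0519). M1P was below NMuMG for Ctgf, and L1P was at 288 and 285 CPM. Ankrd1 was at 144 and 145 CPM in M1P and at 109 and 108 in L1P, where it approached the NMuMG level, a difference of -0.63 ± 0.09 from E1KD to M1P (limma, adjusted p = 6.42e-05, and -0.45 without E1KD replicate 1) and of -0.41 ± 0.09 from M1P to L1P (adjusted p = 3.98e-03), neither of them called. Cyr61 was at 78.3 and 81.6 CPM in M1P, -0.42 ± 0.12 from E1KD (adjusted p = 9.99e-03, and -0.20 without E1KD replicate 1), and at 89.8 and 83.9 in L1P.

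Among the regulators, Amotl1 had the widest range. It encodes a junctional angiomotin family protein that binds YAP and TAZ (chr9:14541966-14645057, minus strand). Amotl1 went from 15.3 and 15.5 CPM in NMuMG to 153 and 164 with TGFβ, a 10.3-fold difference and a log2 fold change of 3.28 ± 0.08 (limma, adjusted p = 3.08e-13). In E1KD it was at 19.1 and 16.2 CPM, in M1P at 22.1 and 22.8 and in L1P at 14.4 and 15.5, so that among low mt-Rnr2 libraries the TGFβ-treated pair stood alone. L1P against M1P gave -0.56 ± 0.08 (adjusted p = 3.50e-04), with no overlap and no call. In the high mt-Rnr2 libraries it was at 17 and 17.8 CPM with the empty vector and at 3.18 and 3.56 in E1KD SCR.

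The paralog Amotl2 followed another order. It was at 148 and 147 CPM in NMuMG, 233 and 236 with TGFβ, 278 and 218 in E1KD, 174 and 174 in M1P and 197 and 196 in L1P. TGFβ and E1KD overlapped, and both lay above NMuMG, by 0.66 ± 0.11 (limma, adjusted p = 1.12e-04) and 0.73 ± 0.11 log2 (adjusted p = 5.43e-05, and 0.56 without E1KD replicate 1), without a call. Ajuba, a LIM-domain protein that binds LATS kinases, was the only gene of the 10 whose TGFβ libraries (83.2 and 91.1 CPM) lay below NMuMG (100.5 and 103), by -0.22 ± 0.07 (adjusted p = 0.0121). It was at 139.7 and 128 CPM in E1KD (0.33 above NMuMG without replicate 1), 145 and 143 in M1P and 147 and 149 in L1P, all above NMuMG. Lats2 was at 17.03 and 17.3 CPM in NMuMG, 32.5 and 36.0 with TGFβ, 25.9 and 20.03 in E1KD, 33.9 and 32.9 in M1P and 33.7 and 37.6 in L1P. Without E1KD replicate 1, Lats2 in E1KD was 0.21 log2 above NMuMG. The TGFβ difference for Lats2 of 0.96 ± 0.10 (adjusted p = 1.46e-06) was just under the fold limit, and passed it at 1.11 with median-of-ratios factors and at 1.03 without TGFβ replicate 1.

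Counted over the genes, TGFβ treatment gave 4 calls among 10, all higher (Amotl1, Ctgf, Ankrd1 and Cyr61), where 5.85% of all tested genes were called higher and 7.66% lower. The median log2 fold change was 0.93 over the 10 genes and -0.08 over all genes tested, and 9 of 10 were positive. These 4 calls were kept under all alternatives run. E1KD against NMuMG gave 1 higher call where 6.44% of genes were called higher and 2.99% lower, with a median of 0.39 against 0.17 over all genes. With median-of-ratios factors these medians were 0.19 and 0.02, with equal sums 0.21 and 0.04, and without E1KD replicate 1 the median of the 10 genes was 0.23. M1P against E1KD gave 1 lower call, with 1.16% of genes called higher and 2.43% lower, and medians of -0.05 over the 10 and -0.17 over all genes. The median of the 10 changed sign, to 0.15 against -0.02 over all genes with median-of-ratios factors, to 0.12 against -0.04 with equal sums and to 0.04 without E1KD replicate 1. Between L1P and M1P limma called 0 of 10, with 0.742% of genes called higher and 0.468% lower, and 4 of the 10 had an unadjusted p under 0.05 against 29.0% of all genes.

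**Figure D2:**
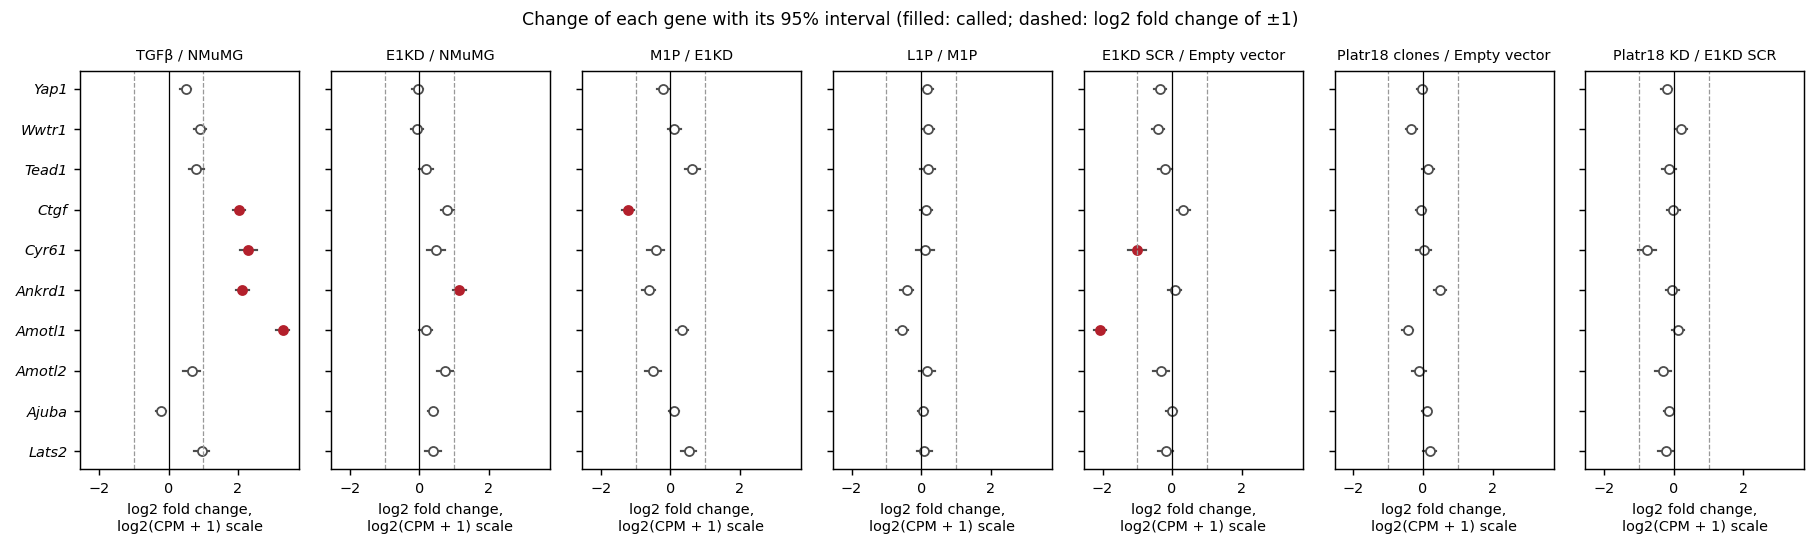
Log2 fold change on the log2(CPM + 1) scale of each of the 10 genes in 7 comparisons, with lines for 95% intervals, filled points for called genes and dashed lines at a log2 fold change of -1 and 1. TGFβ against NMuMG has 4 filled points, all above 2, and the Platr18 comparisons have none.

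TGFβ treatment and hnRNP E1 silencing share the NMuMG control, so they were also compared directly. Amotl1 was higher in TGFβ-treated cells than in E1KD by 3.10 ± 0.08 log2 (limma, adjusted p = 4.18e-13), Cyr61 by 1.83 ± 0.12 (adjusted p = 5.17e-09) and Ctgf by 1.22 ± 0.08 (adjusted p = 8.35e-09). These were the 3 calls among the 10 genes, where 6.17% of genes were called higher and 17.2% lower in TGFβ-treated cells. The median over all genes in this comparison was -0.26, and -0.02 with median-of-ratios factors. Without E1KD replicate 1 the differences of Amotl1, Cyr61 and Ctgf were 3.22, 2.05 and 1.35, and Ankrd1 (1.16) and Wwtr1 (1.13) were called as well, as they were after either rescaling. Fitted on these conditions alone, Amotl1 remained called and Ctgf and Cyr61 did not (limma, adjusted p = 0.0181 and 0.0127). Ajuba was lower with TGFβ than in E1KD by -0.61 ± 0.07 (adjusted p = 1.63e-06, and -0.55 without replicate 1). Amotl2 differed by -0.07 ± 0.11, with a 95% interval from -0.30 to 0.16, and by 0.10 without replicate 1, which turned its sign.

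In the high mt-Rnr2 libraries, hnRNP E1 silencing was read by E1KD SCR against the empty vector. Amotl1 fell from 17 and 17.8 CPM to 3.18 and 3.56, a 5.16-fold difference and a log2 fold change of -2.08 ± 0.08 (limma, adjusted p = 8.25e-11). Cyr61 fell from 97.7 and 82.6 CPM to 41.8 and 46.2, by -1.01 ± 0.12 (adjusted p = 8.32e-06). This Cyr61 value sat at the fold limit, and the call was lost without E1KD SCR replicate 1 (-0.94), without empty vector replicate 1 (-0.89) and with equal sums (-0.99). These 2 genes were called lower and 0 higher, where 3.07% of all genes were called lower and 2.91% higher. Ctgf was at 229.8 and 205 CPM with the empty vector and at 273 and 272 in E1KD SCR, 0.33 ± 0.08 higher (adjusted p = 5.49e-03). Ankrd1 was at 182 and 193 CPM and at 196 and 199.5, and Amotl2 at 192 and 171 and at 135 and 154. Yap1 went from 73.2 and 64.7 CPM to 54.3 and 53.4, and Wwtr1 from 86.5 and 82.0 to 65.7 and 60.6, both lower without overlap and without a call. Ajuba (64 and 62 CPM against 60 and 64.6) overlapped, and Lats2 (17.04 and 15 CPM against 14 and 14) and Tead1 (24.7 and 19.2 against 18.3 and 19) were lower without a call.

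The difference between the silencing effects of the low and the high mt-Rnr2 libraries was tested as an interaction. It was positive for all 10 genes, with a median of 0.52 against 0.17 over all genes. These medians were 0.36 and 0.04 with median-of-ratios factors and 0.32 and 0.01 with equal sums, and the median of the 10 was 0.37 without E1KD replicate 1. Amotl1 gave 2.26 ± 0.12 (limma, adjusted p = 1.05e-08) and Cyr61 1.49 ± 0.17 (adjusted p = 1.88e-05), and both stayed called in all alternatives run. Ankrd1 at 1.07 ± 0.12 (adjusted p = 2.33e-05) and Amotl2 at 1.06 ± 0.15 (adjusted p = 1.76e-04) were called too, which made 4 of 10 where 2.57% of genes were called positive and 0.947% negative. Without E1KD replicate 1 these last values were 0.89 and 0.89 and neither was called, as after either rescaling. Library kind, vector and culture cannot be told apart in this difference.

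**Figure D3:**
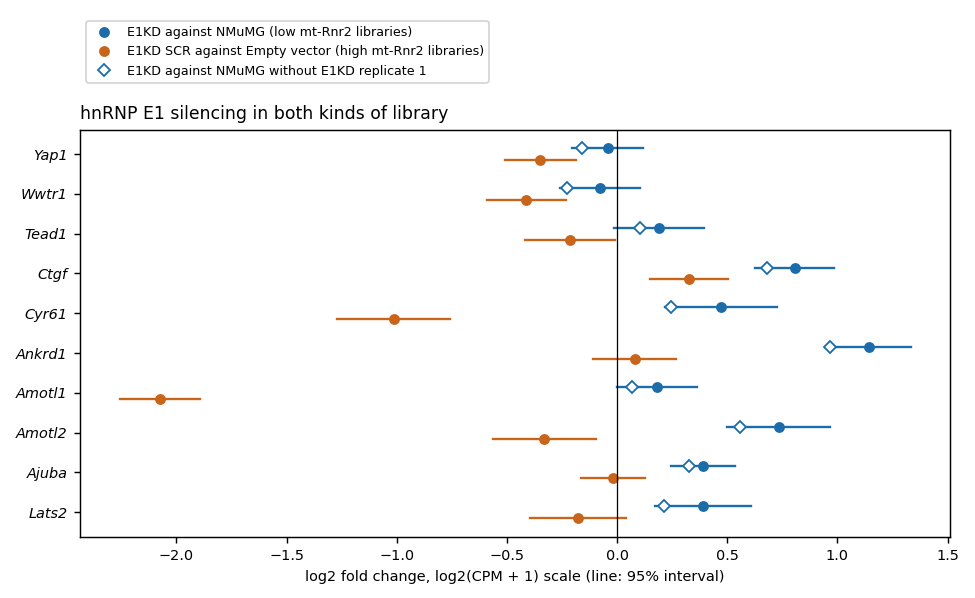
Log2 fold change on the log2(CPM + 1) scale of each gene on hnRNP E1 silencing in low mt-Rnr2 libraries (blue, E1KD against NMuMG, with open diamonds leaving out E1KD replicate 1) and high mt-Rnr2 libraries (orange, E1KD SCR against empty vector), with lines for 95% intervals. Amotl1 and Cyr61 lie to the right of 0 in blue and to the left in orange, and leaving out the replicate moves each blue value to the left.

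Platr18 overexpression, read in the same kind of library and against the same empty vector, left the 10 genes without a call. Platr18 itself, annotated as Lncenc1, was at 3.69 and 3.06 CPM with the empty vector, 3092 and 3096 in clone 12 and 813 and 820 in clone 16. Over both clones limma called 0 of 10 genes, where 0.427% of all genes were called higher and 1.03% lower, and 4 of the 10 had an unadjusted p under 0.05 against 38.3% of all genes. Ankrd1 was higher in each clone library (258 and 269.6 CPM in clone 12, 269 and 259 in clone 16) than in either empty vector library, by 0.49 ± 0.08 (adjusted p = 2.15e-04). Wwtr1 was lower in each clone library (64.6 to 67.3 CPM) than with the empty vector, by -0.34 ± 0.07 (adjusted p = 2.70e-03). Amotl1 was lower as well, by -0.44 ± 0.07 (adjusted p = 4.82e-04), but unequally between the clones. It was at 9.48 and 10.6 CPM in clone 12 and 15.8 and 15.8 in clone 16, and the clones differed by 0.61 ± 0.08 (adjusted p = 4.82e-05).

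For each clone alone, limma called 0 of the 10 genes in clone 12 against the empty vector (1.13% of genes called higher and 2.52% lower), 0 in clone 16 (0.772% and 1.01%) and 0 between clone 16 and clone 12 (2.71% and 1.68%). Unadjusted p-values under 0.05 were found for 4, 6 and 5 of the 10 genes, against 47.2%, 34.3% and 49.0% of all genes. Ctgf was at 229 and 237 CPM in clone 12, overlapping the empty vector, and at 178 and 198 in clone 16, below it. Cyr61, at 97.7 and 82.6 CPM with the empty vector, was at 99.98 and 98.8 in clone 12, just above both, and at 79.9 and 87.1 in clone 16, which overlapped. Lats2, Ajuba and Tead1 differed from the empty vector by 0.20, 0.11 and 0.15 log2 over both clones (limma, smallest adjusted p = 0.112).

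On Platr18 silencing in E1KD cells, Cyr61 gave the widest difference. It was at 41.8 and 46.2 CPM in E1KD SCR and at 25.3 and 24.9 in E1KD Platr18 KD, a log2 difference of -0.78 ± 0.12 (limma, adjusted p = 3.02e-04) without overlap, under the fold limit. Platr18 went from 2.92 and 3.10 CPM to 0.136 and 0.170. Ctgf (273 and 272 against 274 and 266 CPM) and Ankrd1 (196 and 199.5 against 188 and 197) overlapped, with differences of -0.01 (95% interval -0.19 to 0.16) and -0.04 (-0.23 to 0.15). Amotl1 stayed low, at 3.88 and 3.59 CPM against 3.18 and 3.56 in E1KD SCR. Yap1 (46.5 and 46.2 CPM), Amotl2 (116 and 115), Ajuba (55.4 and 56.9), Lats2 (11.6 and 11.8) and Tead1 (17 and 16.4) were lower than in E1KD SCR. Wwtr1 (72.9 and 72.8 CPM) was higher. The differences of these genes from E1KD SCR ran from -0.32 to 0.20 log2, with limma adjusted p of 0.0526 or more. Of 10 genes 0 were called, where 0.485% of all genes were called higher and 0.994% lower, and 6 had an unadjusted p under 0.05 against 30.7% of all genes.

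The wider pathway was described by 3 further lists. Of 16 tested genes of a YAP signature that are not among the 10, 7 rose with TGFβ and 0 fell. Over all genes 5.85% were called higher and 7.66% lower. All 16 values were positive, with a median of 0.75 against -0.08 over all genes. Among them Nt5e (CD73, an ectonucleotidase) rose from 4.21 and 4.58 to 30.6 and 32.4 CPM, F3 (tissue factor) from 16.7 and 16.8 to 125 and 125, Tgfb2 (a TGFβ ligand) from 1.03 and 0.905 to 5.93 and 6.20, and Foxf2 (a forkhead factor) by 1.43 ± 0.09 log2 (limma, adjusted p = 3.58e-09). In E1KD 4 of 16 rose and 0 fell, among them Tgfb2 (6.81 and 5.88 CPM) and Igfbp3 (71.0 and 61.9 CPM against 11.2 and 12.05 in NMuMG, a secreted IGF-binding protein). Over all genes 6.44% were called higher and 2.99% lower in E1KD. The list's median was 0.16 against 0.17 over all genes. With median-of-ratios factors these medians were -0.04 and 0.02, and without E1KD replicate 1 the list's median was -0.08. Without that replicate the call of Crim1, also among the genes that rose in E1KD, was lost. In E1KD SCR Tgfb2 rose, from 0.480 and 0.637 to 3.38 and 3.37 CPM, and Ptpn14 (53.2 and 50.4 to 24.2 and 24.2 CPM), a phosphatase that binds YAP, and the kinase gene Nuak2 (56.8 and 50.2 to 23.7 and 26.0 CPM) fell.

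Upstream of the coactivators, 3 of 18 tested Hippo regulators rose with TGFβ and 0 fell, where 5.85% of all genes were called higher and 7.66% lower. Amot, the third angiomotin gene, rose from 31.2 and 31.8 to 86.1 and 93.6 CPM, a log2 fold change of 1.48 ± 0.08 (limma, adjusted p = 1.63e-09), and the scaffold gene Wwc2 and the kinase gene Map4k4 rose by 1.18 and 1.09. In E1KD Amot fell to 13.7 and 11.2 CPM, by -1.28 ± 0.08 (adjusted p = 1.23e-08), and in E1KD SCR it fell from 18.4 and 18.7 to 8.42 and 8.13 CPM, by -1.08 ± 0.08 (adjusted p = 1.22e-07). The E1KD call stood without replicate 1. Amot was thus lower in E1KD and in E1KD SCR than in their controls and higher with TGFβ, without overlap in any of these comparisons. E1KD SCR descends from E1KD, so hnRNP E1 silencing and the line it was made in cannot be told apart. Frmd6 rose in E1KD (1.11), a call lost after rescaling and without E1KD replicate 1. The kinase genes Stk3, Stk4 and Lats1 were not called in any of these comparisons. Of 5 tested TEAD and vestigial-like genes 2 rose with TGFβ (Vgll3 and Tead3) and 1 fell (Tead4), and 2 rose in E1KD (Tead2 and Vgll3). Over all genes the shares called higher and lower were 5.85% and 7.66% with TGFβ and 6.44% and 2.99% in E1KD.

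**Figure D4:**
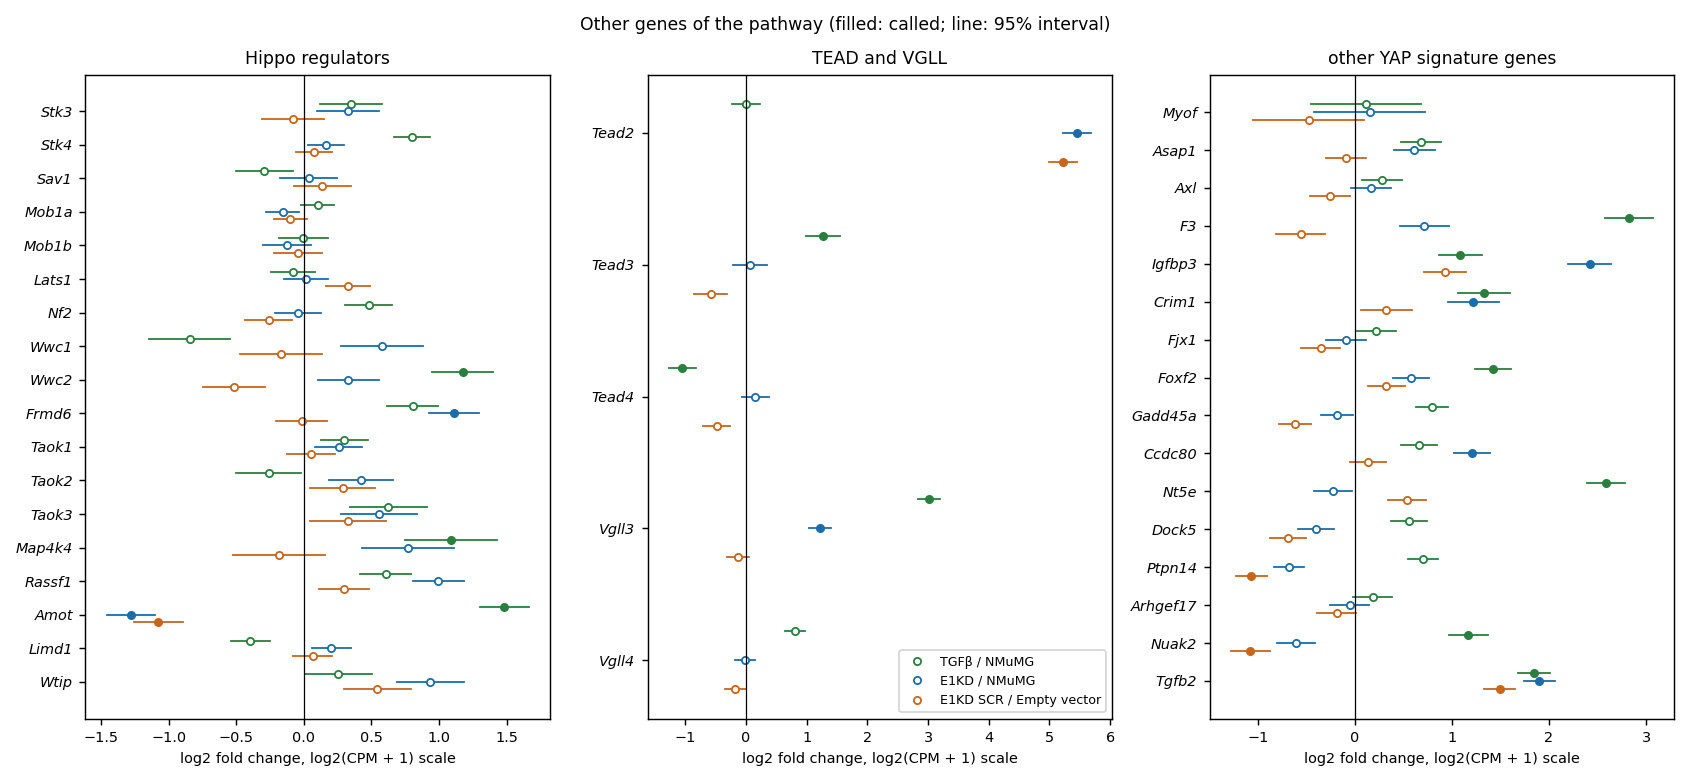
Log2 fold change on the log2(CPM + 1) scale, with 95% intervals, of tested Hippo regulators, TEAD and vestigial-like genes and further YAP signature genes, for TGFβ (green), E1KD against NMuMG (blue) and E1KD SCR against empty vector (orange). Filled points are called, and Amot lies to the right for TGFβ and to the left for both silencing comparisons. Tead2 was listed at 0 in NMuMG, so its position depends on the added 1 CPM.

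M1P against E1KD gave 0 calls among 18 Hippo regulators (limma, 13 with an unadjusted p under 0.05, against 56.2% of all genes), 1 of 5 TEAD and vestigial-like genes (Tead3, lower) and 1 of 16 signature genes (Nt5e, 11.3 and 11.9 CPM in M1P against 3.86 and 3.40 in E1KD). Without E1KD replicate 1 and after either rescaling 2 signature genes were called, with Dock5 added. Over all genes 1.16% were called higher and 2.43% lower in M1P than in E1KD. From M1P to L1P Nt5e fell to 3.34 and 2.56 CPM. Over both Platr18 clones 1 signature gene was called higher (Nt5e, through clone 16 only) and 1 lower (Igfbp3, by -1.14 ± 0.09 log2, limma, adjusted p = 3.76e-07). Over all genes 0.427% were called higher and 1.03% lower. In clone 12 Gadd45a was called higher (1.07) and Fjx1 (-1.30) and Nuak2 (-1.11) lower, and in clone 16 Vgll3 (1.35) and Nt5e were called higher and Igfbp3 (-1.54) lower. Nt5e was at 0.137 and 0.159 CPM with the empty vector, 0.0744 and 0.0921 in clone 12 and 10.8 and 11.6 in clone 16. It was thus above the empty vector in clone 16 only. The clones differed by 3.49 ± 0.09 log2 (limma, adjusted p = 1.82e-12). On Platr18 silencing limma called 0 of 18, 0 of 5 and 0 of 16 genes of these lists. Over all genes 0.485% were called higher and 0.994% lower. Of the lists 6, 5 and 10 genes had an unadjusted limma p under 0.05, against 30.7% of all genes.

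Some genes known to respond to TGFβ through SMAD proteins and to actin through SRF are shown for reference, since targets such as Ctgf are also reached by these routes. With TGFβ the SMAD-responsive gene Pmepa1 rose by 2.98 ± 0.09 log2 (limma, adjusted p = 1.41e-12) and Id1 fell by 2.06 log2 (adjusted p = 1.49e-09). Both were called higher in E1KD, so that Id1 went the other way there. Pmepa1 was at 156 and 132 CPM in E1KD against 55.4 and 57.9 in NMuMG, and Id1 at 253 and 223 against 85.9 and 92.1. Of 7 tested SRF-responsive genes 6 rose and 0 fell with TGFβ, Cnn2 (1.81) and Tpm1 (1.81) among those that rose. Their list had a median of 1.69 against -0.08 over all genes. Over all genes the shares called higher and lower were 5.85% and 7.66% with TGFβ and 6.44% and 2.99% in E1KD. In E1KD 2 of these 7 rose, and 1 (Vcl) without E1KD replicate 1. The part of these routes in the target levels was not tested.

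Annotated genes that reach 5 CPM overlap 2 of the 10, and the other overlapping genes stayed at 1.12 CPM or below. RP23-234P12.1, on the strand opposite to Ctgf, was at 17.8 and 17.6 CPM in NMuMG, 51.5 and 72.0 with TGFβ, 40.7 and 27.3 in E1KD and 10.9 to 12.5 in M1P and L1P, and at no more than 0.347 CPM in any high mt-Rnr2 library. It followed Ctgf in the low mt-Rnr2 libraries at a far lower level and was nearly absent from the others, although Ctgf was present in all. RP24-92H14.2, a processed pseudogene opposite to Lats2, was at 1.47 to 6.61 CPM in low mt-Rnr2 libraries and at 25.0 to 42.9 in the others, above Lats2 itself there. Whether counting used strand is not stated in the sources used here, so reads of these pairs cannot be told apart, and the Lats2 values of the high mt-Rnr2 libraries are uncertain.

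**Figure D5:**
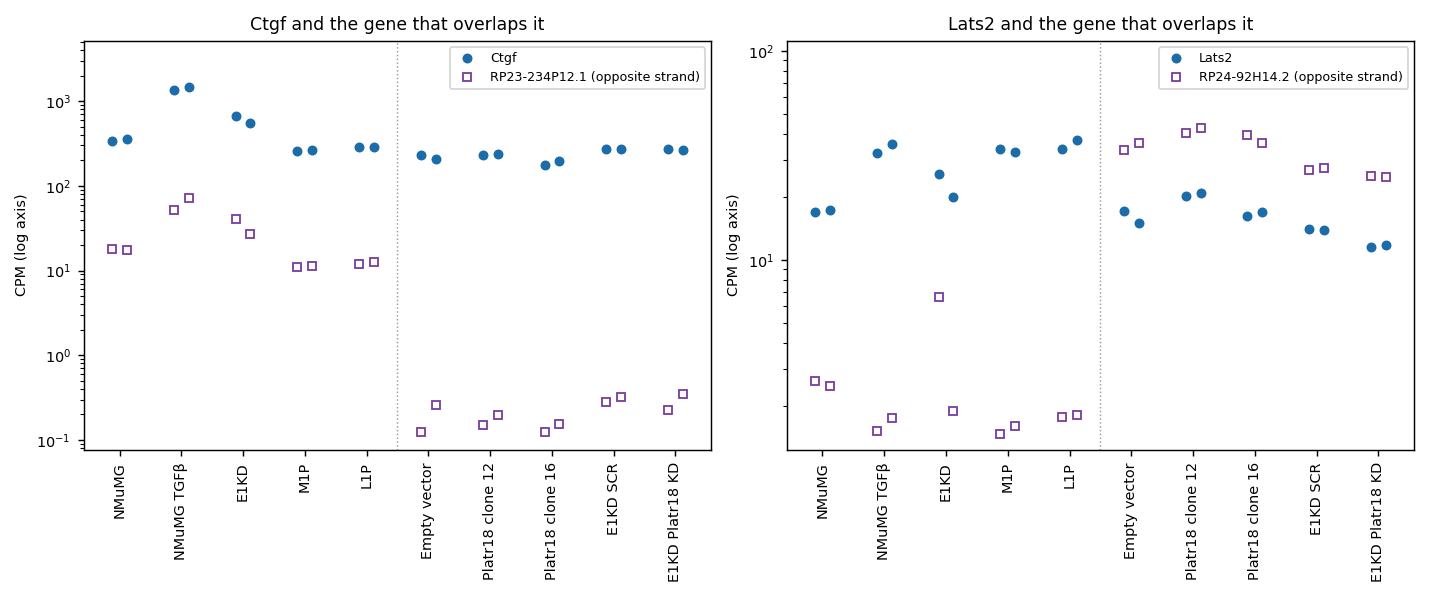
CPM on a log axis in all 20 libraries of Ctgf and Lats2 (filled circles) and of the opposite-strand genes that overlap them (open squares). RP23-234P12.1 falls below 0.35 CPM to the right of the dotted line that separates low from high mt-Rnr2 libraries, and RP24-92H14.2 exceeds Lats2 there.

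The genes with the pattern most like each target were sought among 11516 genes with a mean of at least 5 CPM, by Pearson r of log2(CPM + 1) over the 20 libraries after subtracting the mean of each kind of library. For Cyr61 they were Igf1r (r = 0.983), Tns1 (0.963), Rab11fip5 (0.962), Pard3 (0.961) and Kank2 (0.960). For Ankrd1 they were RP23-11N17.3 (0.968), Pfkfb3 (0.967), Sat1 (0.960), an uncharacterised clone-named gene (0.956) and Zyx (0.951). For Ctgf they were Kctd5 (0.970), Mef2d (0.966), its overlapping partner RP23-234P12.1 (0.965), Agpat3 (0.952) and Zdhhc18 (0.950). Among the 10 genes themselves, r was 0.919 between Amotl1 and Cyr61, 0.936 between Cyr61 and Yap1 and 0.957 between Lats2 and Tead1, and 0.596 between Ctgf and Cyr61. These values describe 20 points that share libraries and scaling, with the TGFβ pair at one end for most genes.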

How the data were processed

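RNA was isolated with Trizol from cultured cells and sequenced in single-pass runs on a HiSeq2500. According to the study's methods and the submitters' processing notes, the authors aligned reads with Bowtie2 2.2.5 to GRCm38.p6, quantified genes with Partek E/M and deposited normalised values. The deposited values are CPM, offset by 1e-04, with sums per library of 547497 to 797257. Strand use is not given in the sources used here. The study tested genes with Partek's Gene Specific Analysis, which was replaced here by limma 3.58.1 (R 4.3.3).

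log2(CPM + 1) values of all 20 libraries were fitted with a mean per condition and a trended prior, which left 10 residual degrees of freedom. Values of up to 2000 reads were whole reads (within 0.05) for 86% to 97% of genes in a library, too few to recover counts, so no count test was run. The test covered genes reaching 1 CPM in 2 or more libraries, and p-values were adjusted by Benjamini-Hochberg over all 17106 genes. A gene was called when p before adjustment was under 0.001 and the log2 fold change was 1 or more in size. The largest adjusted p among called genes was 0.00852. An exact permutation test of 2 against 2 libraries cannot give p below 0.333 and was not used. The same-numbered libraries of compared conditions correlated from -0.39 to 0.29 in their deviations, so numbers were not treated as pairs. The fit was tested on simulated data.

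All 10 genes are named. Of each further list, at most 4 called genes per comparison with the smallest p are named, or the gene with the smallest p where none was called. RP23-234P12.1 and RP24-92H14.2 were named because they overlap and exceed 5 CPM, chosen after their values were seen, as were Stk3, Stk4 and Lats1. Counts over the SMAD-responsive list are not reported here. The genes and lists were chosen with earlier results of these data known. Exon lengths came from GENCODE M21 and promoters from RefSeq, read with Python 3 scripts. Alternatives covered the pseudocount, low-value filter, scaling, replicate block, prior trend, samples fitted and each library left out in turn.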

Additional observations from a re-analysis of the deposited data

Results flagged for a closer look

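Genes were listed here where a test of the difference itself separated hnRNP E1 silencing in low mt-Rnr2 libraries (E1KD against NMuMG) from silencing in high mt-Rnr2 libraries (E1KD SCR against empty vector). The interaction on the log2(CPM + 1) scale was 2.26 for Amotl1, 1.49 for Cyr61, 1.07 for Ankrd1 and 1.06 for Amotl2 (limma, largest adjusted p = 1.76e-04). Amotl1 differed from its control by 0.18 in low and by -2.08 in high mt-Rnr2 libraries, Cyr61 by 0.47 and -1.01, Ankrd1 by 1.15 and 0.08 and Amotl2 by 0.73 and -0.33. Without E1KD replicate 1 the interactions were 2.14, 1.26, 0.89 and 0.89, of which those of Amotl1 and Cyr61 were called.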

How the results depend on the processing

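No result for a single gene changed direction while called. With the replicate number as a block (replicate block), the TGFβ comparison had 4 calls among the 10 genes, as without it, and the block changed no call among them. A pseudocount of 0.1, other low-value filters, no trend in the prior, a call at adjusted p under 0.05 and a fit within 1 kind of library also changed none of these calls. Calls among the 10 genes changed after rescaling to equal sums, to 0 for E1KD against NMuMG, 1 for E1KD SCR against empty vector, 5 for TGFβ against E1KD and 2 for the interaction, and with median-of-ratios factors to 6 for TGFβ against NMuMG (Wwtr1 and Lats2 added) and to 0, 5 and 2 for E1KD against NMuMG, TGFβ against E1KD and the interaction. Fitting the compared conditions alone left 0 calls among the 10 for E1KD against NMuMG, 0 for M1P against E1KD and 1 for TGFβ against E1KD, with 758, 274 and 1366 calls over all genes.

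Calls over all genes moved by more than 1.5 times with a pseudocount of 0.1, to 1130 for M1P against E1KD, 465 for L1P against M1P, 616 for both Platr18 clones, 1160 for clone 12, 641 for clone 16, 633 for Platr18 silencing, 1708 for E1KD SCR against empty vector, 1362 between the clones and 983 for the interaction. With a mean of at least 5 CPM, which tests fewer genes, they were 329, 115, 127, 366, 163, 139, 557, 476 and 308 in the same order, and 948 for E1KD against NMuMG. The main counts were 614, 207, 249, 624, 305, 253, 1023, 750 and 601, and 1614 for E1KD against NMuMG.

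Leaving out each library in turn gave 0 to 1 calls among the 10 genes for E1KD against NMuMG, 1 to 2 for E1KD SCR against empty vector, 3 to 5 for TGFβ against E1KD and 2 to 4 for the interaction. Calls over all genes then ran from 1412 to 3074 for E1KD against NMuMG, 568 to 2021 for M1P against E1KD and 563 to 1779 for the interaction, the highest without E1KD replicate 2, when replicate 1 alone stood for E1KD and was assumed to vary like the other conditions. Calls over all genes also changed for TGFβ against E1KD, and changed little for E1KD SCR against empty vector. Whether the ranges among the 10 genes differ from those over all genes was not tested. With 2 libraries a condition the precision is limited, and the fold change of a gene near 1 CPM depends on the added 1 CPM. List counts after rescaling and without E1KD replicate 1 were added after seeing the data.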
